A study of Rattus norvegicus with 12 samples.

Results

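A set of 5 genes of metabolic enzymes was described in rings of rat aorta cultured in gel: Akr1c14, Akr1c15, Akr1c3 and Akr1c19, which encode aldo-keto reductases of the 1C subfamily, and Sult1a1, which encodes a cytosolic sulfotransferase. They are 5 of the 14324 named genes on the array, matched by symbol, and were chosen because their levels were lower with tumour necrosis factor (TNF), an inflammatory cytokine. The choice used the TNF comparisons, so the TNF differences of the 5 genes are given as descriptions with standard errors and no test. Each gene was measured by 1 probe set, and near-identical copies within the Akr1c subfamily may share probes, so each Akr1c value is uncertain as the value of a single gene.

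The cultures were aortic rings from male Fisher 344 rats 1 to 2 months old, kept in serum-free medium and harvested on day 2. Rings lay in a collagen gel or in a fibrin gel, and each gel was either left untreated or given 10 ng/ml recombinant rat TNF, which makes 4 groups of 3 arrays, named here by gel and then by control or TNF. All 4 groups share the strain, the sex, the age range, the medium and the day. Each sample combined 4 to 6 ring cultures, so a value is an average over rings. The sample titles call the replicates biological, but the labels do not say whether they came from different animals. Each p-value therefore refers only to the variation among the samples at hand. A tissue label names collagen for the fibrin samples as well, and the sample titles were used instead. The ring holds several cell types, and in such bulk samples fewer cells of a type and less RNA per cell cannot be told apart.

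Aldo-keto reductases of the 1C subfamily use NADPH to reduce ketones and aldehydes, among them steroid hormones, prostaglandins and products of lipid oxidation. In the rat, Akr1c14 (also called Akr1c9) is the 3alpha-hydroxysteroid dehydrogenase, and Akr1c3 (also called Akr1c18) acts on progesterone as a 20alpha-hydroxysteroid dehydrogenase. Sult1a1 transfers sulfate from the donor PAPS to phenols, which makes them more soluble.

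In RefSeq (assembly GRCr8) the Akr1c genes lie in a cluster of 10 protein-coding genes on chromosome 17, and Sult1a1 lies on chromosome 1. Akr1c3, Akr1c14 and Akr1c15 are next to each other at the end of that cluster, and Akr1c19 is separated from them by Akr1c12. These 3 neighbours share stretches of sequence. Over the 12 arrays Sult1a1 correlated with Akr1c14 at 0.95, and as closely with Akr1c15 (0.951) and Akr1c19 (0.955). The 250 bases upstream of the RefSeq start are shown for the 3 neighbours and for Sult1a1. All are written 5′ to 3′ on the strand of the gene, from RefSeq with GRCr8 coordinates, and capitals mark runs of at least 10 bases that 2 of the promoters have in common. The promoter of Akr1c14 is chr17:71083185-71083434 on the minus strand, that of Akr1c15 chr17:71117958-71118207 on the minus strand, that of Akr1c3 chr17:71020634-71020883 on the plus strand, and that of Sult1a1 chr1:190706113-190706362 on the minus strand.
Akr1c14: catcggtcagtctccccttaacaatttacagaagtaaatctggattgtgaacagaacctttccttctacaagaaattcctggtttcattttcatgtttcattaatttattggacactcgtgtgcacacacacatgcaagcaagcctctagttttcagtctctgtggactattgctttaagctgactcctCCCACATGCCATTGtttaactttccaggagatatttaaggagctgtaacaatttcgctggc
Akr1c15: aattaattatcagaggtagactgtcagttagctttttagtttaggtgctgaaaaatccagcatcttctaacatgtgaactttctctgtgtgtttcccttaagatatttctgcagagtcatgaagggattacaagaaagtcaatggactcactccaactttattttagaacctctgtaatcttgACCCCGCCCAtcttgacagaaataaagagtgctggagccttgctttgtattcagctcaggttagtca
Akr1c3: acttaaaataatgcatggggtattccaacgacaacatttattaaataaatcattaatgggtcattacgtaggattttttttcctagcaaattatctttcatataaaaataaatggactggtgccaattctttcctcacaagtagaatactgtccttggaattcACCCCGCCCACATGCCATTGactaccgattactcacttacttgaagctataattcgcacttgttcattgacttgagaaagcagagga
Sult1a1: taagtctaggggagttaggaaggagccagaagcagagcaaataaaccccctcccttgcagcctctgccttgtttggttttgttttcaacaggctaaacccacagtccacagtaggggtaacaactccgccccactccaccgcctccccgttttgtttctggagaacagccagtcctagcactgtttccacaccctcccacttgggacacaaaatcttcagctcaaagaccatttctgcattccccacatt

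Counted back from the start site, Akr1c14 and Akr1c3 share the 14 bases CCCACATGCCATTG, at -61 to -48 in Akr1c14 and at -81 to -68 in Akr1c3. Of the 33469 RefSeq promoters of this length, 2 (0.00598%) hold that run, and these are the 2 genes themselves. Akr1c15 and Akr1c3 share the 10 bases ACCCCGCCCA, at -67 to -58 and at -87 to -78, a run found in 98 promoters (0.293%), and the 2 runs overlap in Akr1c3. No run of 10 bases is shared with Akr1c19 or with Sult1a1, where the longest shared runs are 7 to 9 bases. Of 8 motifs searched on both strands, the antioxidant response element core TGACNNNGC, a sequence bound by NRF2, occurs in Akr1c15 only among the 5 promoters, at -140 to -132 and at -69 to -61, and in 10.1% of all promoters. The GC box GGGCGG lies at -64 to -59 in Akr1c15, at -84 to -79 in Akr1c3 and at -125 to -120 in Sult1a1 (30.5% of all promoters), inside the shared run in the first 2. The NF-kB motif has a match in Akr1c3, at -234 to -225 (6.33% of all promoters), and the glucocorticoid receptor half-site AGAACA in Sult1a1, at -89 to -84 (17.5%). CCAAT occurs in Akr1c14 and Akr1c3 (34% of all promoters), and TATAAA in Akr1c3 and Akr1c19 (12.9%). The AP-1 motif TGANTCA (6.34%) and the C/EBP motif TTGCNNAA (9.22%) have no match in the 5 windows. The antioxidant response element match at -69 to -61 overlaps the shared run and the GC box of Akr1c15. A match of letters describes the window and is not evidence of binding.

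Levels are on the deposited log2 scale, where a difference of 1 is a factor of 2, and group values are the mean ± SD of 3 arrays. The array medians lay between 5.89 and 5.98, so Akr1c14 and Sult1a1 in untreated collagen were bright probe sets, while Akr1c3 and Akr1c19 were below the median of the array in every group. Levels of different genes come from different probes and are not compared.

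Akr1c14 stood above 93.3% of genes in untreated collagen. Its levels there were 10.23, 10.65 and 10.52 (10.47 ± 0.217), and in collagen with TNF they were 9.678, 9.469 and 9.503 (9.55 ± 0.112). Untreated fibrin arrays read 9.099, 9.39 and 9.327 (9.272 ± 0.153), and fibrin TNF arrays 6.627, 7.262 and 6.865 (6.918 ± 0.321). No pair of groups overlapped, and the order ran from collagen control through collagen TNF and fibrin control to fibrin TNF. The narrowest gap between neighbours, 0.079, lay between collagen TNF and fibrin control, and the fibrin TNF group stood 1.836 below the lowest untreated fibrin array.

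Sult1a1 had levels of 8.532, 9.221 and 9.091 in untreated collagen (8.948 ± 0.366) and of 7.338, 7.005 and 7.11 in collagen with TNF (7.151 ± 0.171). Its untreated fibrin arrays read 6.932, 7.217 and 7.53 (7.226 ± 0.299), and its fibrin TNF arrays 5.225, 5.584 and 5.568 (5.459 ± 0.203). Collagen TNF and untreated fibrin overlapped and did not differ beyond their spread, while untreated collagen lay above both and fibrin TNF below both.

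Akr1c15, a reductase of the same subfamily, had levels of 8.166, 8.36 and 8.244 in untreated collagen (8.257 ± 0.098) and of 6.782, 6.374 and 6.643 in collagen with TNF (6.6 ± 0.208). Its untreated fibrin arrays read 6.873, 6.859 and 6.868 (6.867 ± 0.007), and its fibrin TNF arrays 6.008, 6.161 and 6.047 (6.072 ± 0.079). The 4 groups were apart, with untreated collagen highest, untreated fibrin next, then collagen TNF, then fibrin TNF, although the middle pair was separated by 0.076 only.

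Akr1c19 had levels of 5.41, 5.747 and 5.527 in untreated collagen (5.561 ± 0.171) and of 4.188, 4.307 and 4.07 in collagen with TNF (4.188 ± 0.119). The fibrin arrays read 4.194, 4.227 and 4.552 when untreated (4.324 ± 0.198) and 3.601, 3.7 and 3.799 after TNF (3.7 ± 0.099). The order was that of Akr1c15, with collagen TNF and untreated fibrin overlapping. Outside untreated collagen the mean of Akr1c19 stood above 12% to 19.5% of genes, near the low end of the array's range.

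Akr1c3 was the most variable of the 5 in untreated collagen, with levels of 4.731, 5.927 and 5.874 (5.511 ± 0.676). Its other groups were close together, at 4.025, 3.625 and 4.178 in collagen with TNF (3.943 ± 0.286), 4.146, 4.394 and 4.38 in untreated fibrin (4.307 ± 0.14) and 3.787, 3.907 and 4.191 in fibrin with TNF (3.962 ± 0.207). Untreated collagen lay above the rest, whereas fibrin control overlapped fibrin TNF, and fibrin TNF overlapped collagen TNF. In these 3 groups its mean stood above 14.4% to 19.2% of genes, near the low end of the array's range.

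**Figure D1:**
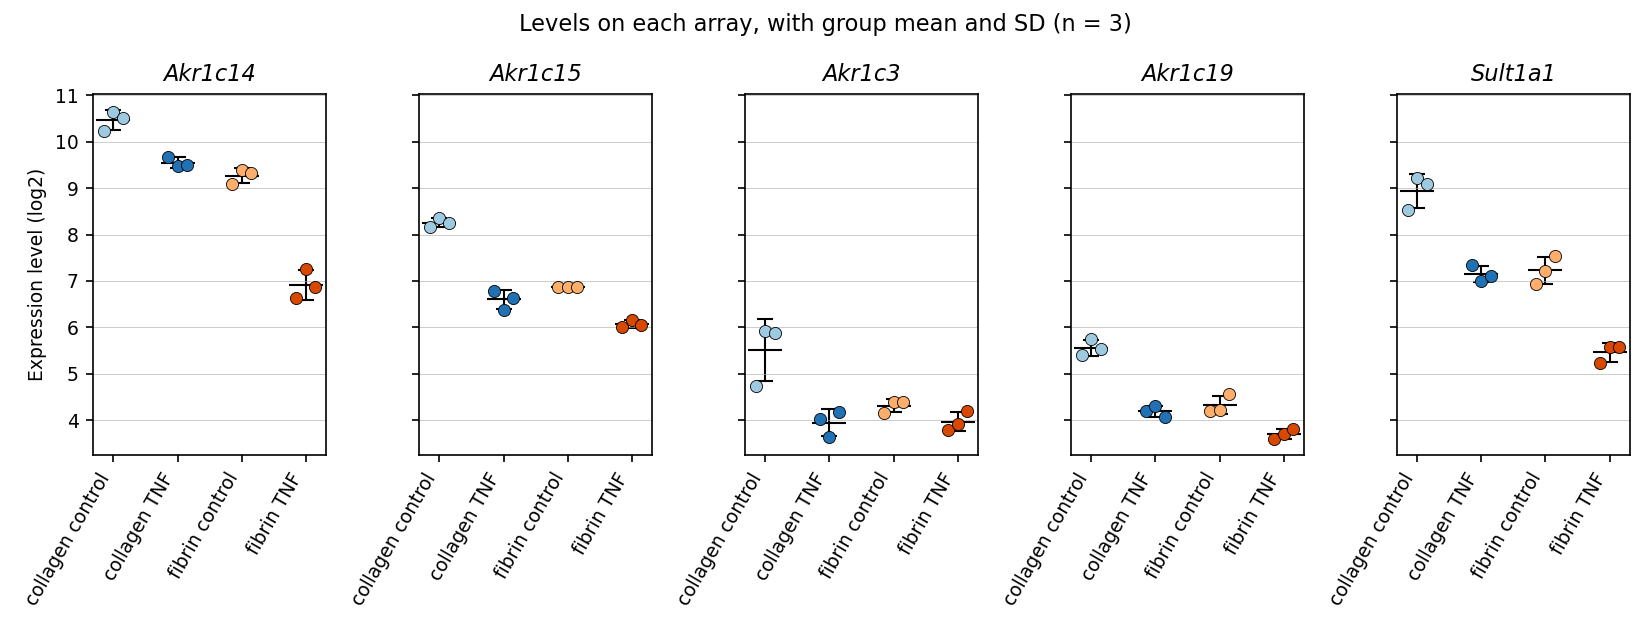
Expression level (log2, vertical axis) of each of the 5 genes on each of the 12 arrays, by group; points are arrays, long bars group means and error bars SD with n = 3. Untreated collagen is the highest group for all 5 genes, and fibrin TNF is the lowest for Akr1c14, Akr1c15, Akr1c19 and Sult1a1, whereas Akr1c3 lies between 3.625 and 4.394 in the 3 other groups.

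In collagen, all 5 genes were lower with TNF on every array than on any untreated array, a separation in that direction seen for 13.8% of the 14324 genes. Sult1a1 was lower by a log2 difference of -1.80 ± 0.19 (SE), 3.48-fold, the lowest value of all genes. Akr1c15 differed by -1.66 ± 0.10 (3.15-fold), Akr1c3 by -1.57 ± 0.26 (2.96-fold), Akr1c19 by -1.37 ± 0.11 (2.59-fold) and Akr1c14 by -0.92 ± 0.15 (1.89-fold). Counting from the most negative difference, these were ranks 2, 4, 9 and 51. Across the array, 3.1% of genes fell and 3.27% rose with TNF in collagen at an adjusted p under 0.05, and nothing about the 5 genes is read from these shares, since they were chosen on this comparison.

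Among the fibrin cultures, 4 of the 5 genes were lower with TNF without overlap, against 7.97% of all genes, and Akr1c3 overlapped. Akr1c14 had a difference of -2.35 ± 0.15 (5.11-fold), the second lowest of all genes, and Sult1a1 one of -1.77 ± 0.19 (3.40-fold), rank 3. The differences of Akr1c15 (-0.79 ± 0.10, 1.73-fold), Akr1c19 (-0.62 ± 0.11, 1.54-fold) and Akr1c3 (-0.35 ± 0.26, 1.27-fold) were smaller. In this comparison 1.47% of all genes fell and 1.65% rose.

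The 5 genes differed among themselves in which gel showed the larger TNF difference. Fibrin minus collagen, the difference of the TNF differences was -1.44 ± 0.21 for Akr1c14, which was lower still with TNF in fibrin. It was 0.86 ± 0.14 for Akr1c15, 1.22 ± 0.37 for Akr1c3 and 0.75 ± 0.16 for Akr1c19, whose TNF differences were larger in collagen. For Sult1a1 it was 0.03 ± 0.26, smaller than its SE. Akr1c14 had the opposite sign from its chromosomal neighbours Akr1c3 and Akr1c15. These values are built from the comparisons that chose the genes and are not tested, and across the array 1.24% of genes passed the test of this difference. In untreated fibrin Akr1c3 and Akr1c19 stood above only 19.2% and 19.5% of genes, near the low end of the array's range. How far that limits their TNF differences in fibrin was not tested.

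**Figure D2:**
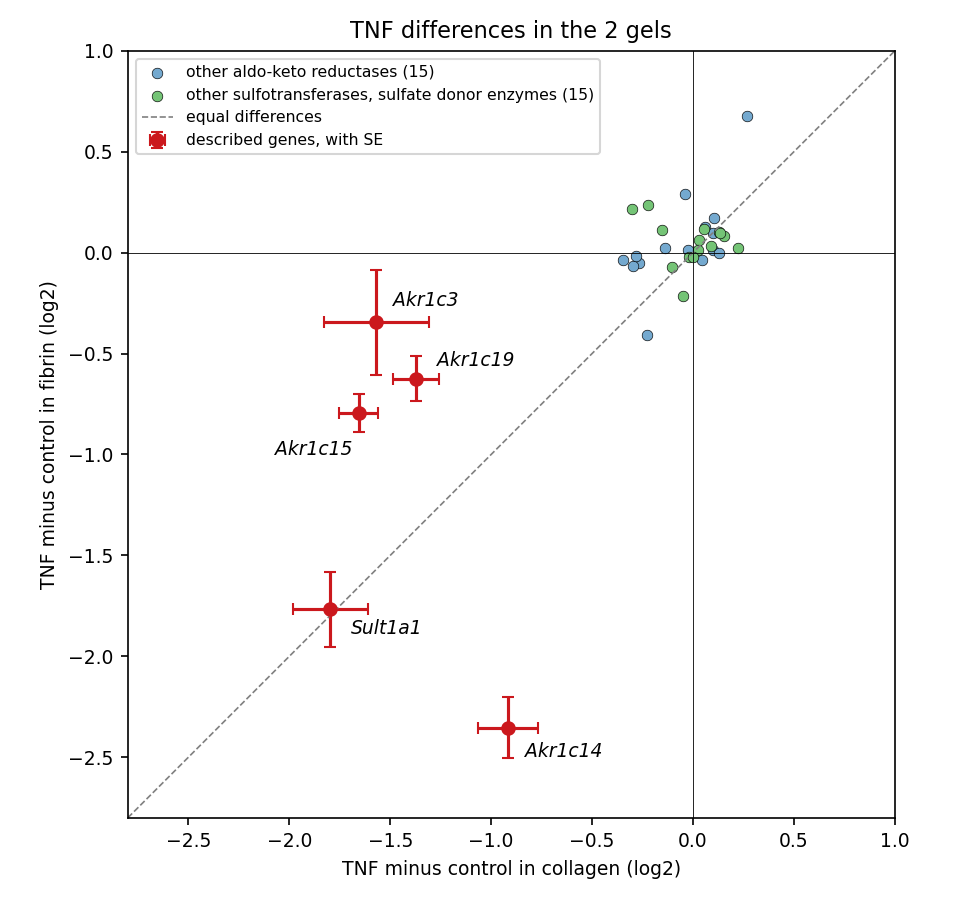
TNF minus control in collagen (horizontal axis, log2) against TNF minus control in fibrin (vertical axis, log2). Red points are the 5 genes with SE and blue points 15 other aldo-keto reductases. Green points are 15 genes listed as other sulfotransferases and sulfate donor enzymes, Sts and Sumf2 among them. Akr1c14 lies below the dashed line of equal differences, Sult1a1 on it, and Akr1c3, Akr1c15 and Akr1c19 above it. The other genes of both lists lie between -0.348 and 0.265 in collagen and between -0.409 and 0.679 (Akr1b8) in fibrin.

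Same-numbered arrays of a gel gave the TNF difference pair by pair. For Akr1c14 the 3 pairs read -0.55, -1.183 and -1.017 in collagen and -2.472, -2.128 and -2.462 in fibrin, and every fibrin pair was below every collagen pair. For Sult1a1 they read -1.194, -2.217 and -1.981 in collagen and -1.707, -1.633 and -1.962 in fibrin, which overlap. For Akr1c3 the collagen pairs spread from -2.302 to -0.707 and the fibrin pairs from -0.487 to -0.189. Akr1c15 ranged from -1.986 to -1.384 in collagen and from -0.865 to -0.698 in fibrin, and Akr1c19 from -1.458 to -1.222 and from -0.753 to -0.527.

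The array labelled collagen control replicate 1 was the lowest of its group for all 5 genes, by a mean deviation of -0.335 from the group means, and replicate 2 was the highest for all 5. Fibrin TNF replicate 1 was the lowest of its group for all 5 genes too (-0.173). Without collagen control replicate 1, the TNF difference of Akr1c3 in collagen was -1.958 and its difference between gels 1.613, both further from 0 than with that array. Over the 12 arrays the pairwise correlation of the 5 genes ran from 0.631 (Akr1c14 and Akr1c3) to 0.976 (Akr1c15 and Akr1c19), a description that mostly carries the group differences. Once group means were removed, Akr1c15 and Akr1c19 were at 0.037, and Akr1c3 and Sult1a1 at 0.797, again over 12 arrays.

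The gel itself was compared by the mean of both fibrin groups minus the mean of both collagen groups. This is orthogonal to the TNF differences that chose the genes, and was tested on that ground. Orthogonality frees a test from the choice only where the groups share 1 spread. For Akr1c3 the SD was 0.676 in untreated collagen and 0.14 to 0.286 in the other groups, so its call is not free of the choice. The group SDs also ran from 0.007 to 0.208 for Akr1c15 and from 0.112 to 0.321 for Akr1c14. They ran from 0.171 to 0.366 for Sult1a1 and from 0.099 to 0.198 for Akr1c19. With 3 arrays per group a shared spread is not shown for these genes, so their calls are not shown to be free of the choice either. The 5 genes were also chosen with earlier results of these data known. All 5 genes fell in fibrin, in the limma fit over 14324 genes with Benjamini-Hochberg adjustment, a comparison in which 7.71% of all genes fell and 8.28% rose. Akr1c14 averaged 8.095 in fibrin and 10.01 in collagen, a difference of -1.91 ± 0.11 (adjusted p = 8.63e-08), and all 6 fibrin arrays lay below all 6 collagen arrays, as for 1.86% of genes. Sult1a1 averaged 6.343 and 8.05, a difference of -1.71 ± 0.13 (adjusted p = 1.47e-06). The difference was -0.96 ± 0.07 for Akr1c15 (adjusted p = 6.93e-07) and -0.86 ± 0.08 for Akr1c19 (adjusted p = 7.87e-06), and for these genes and Sult1a1 the 6 fibrin arrays overlapped the 6 collagen arrays across treatments. Akr1c3 had the smallest difference, -0.59 ± 0.18 (adjusted p = 0.0452), and lost this call in 15 alternatives, among them the random replicate block within each gel (adjusted p = 0.0889) and the omission of any array other than collagen control replicate 1 or collagen TNF replicate 2.

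Within a treatment the gel difference is described without a test, since it shares arrays with the TNF comparisons. Without TNF, fibrin minus collagen ran from -1.19 ± 0.15 for Akr1c14 (2.29-fold) to -1.72 ± 0.19 for Sult1a1 (3.30-fold). It was -1.39 ± 0.10 for Akr1c15, -1.20 ± 0.26 for Akr1c3 and -1.24 ± 0.11 for Akr1c19. With TNF it was -2.63 for Akr1c14 (6.20-fold) and -1.69 for Sult1a1 (3.23-fold), but -0.53 for Akr1c15, -0.49 for Akr1c19 and 0.02 for Akr1c3, where the groups overlapped.

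Set against untreated collagen, fibrin with TNF was lower by -3.55 ± 0.15 for Akr1c14, 11.7-fold, where the differences of TNF alone and fibrin alone sum to -2.11. For Sult1a1 it was lower by -3.49 ± 0.19, 11.2-fold, beside a sum of -3.52. The combined difference was smaller in size than the sum for Akr1c15 (-2.18 ± 0.10 beside -3.05), Akr1c3 (-1.55 ± 0.26 beside -2.77) and Akr1c19 (-1.86 ± 0.11 beside -2.61). In fibrin TNF the means of Akr1c19 and Akr1c3 stood above only 12% and 14.9% of genes, near the low end of the array's range, and how far that limits their combined differences was not tested. On the linear scale of the deposited values, fibrin TNF stood at 8.55% of untreated collagen for Akr1c14, 8.9% for Sult1a1, 22.0% for Akr1c15, 27.5% for Akr1c19 and 34.2% for Akr1c3.

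**Figure D3:**
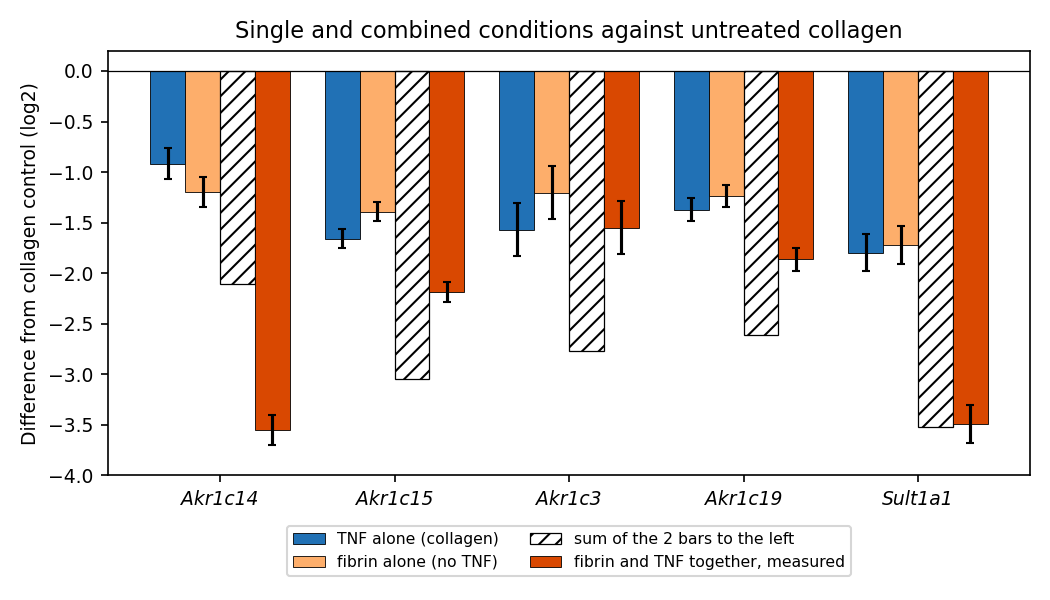
Difference from untreated collagen (log2, vertical axis) for each gene, with bars for TNF alone, fibrin alone, the sum of both and fibrin with TNF as measured; error bars are SE. The measured bar goes beyond the sum for Akr1c14 (-3.55 beside -2.11), equals it within the SE for Sult1a1, and is shorter for Akr1c15, Akr1c3 and Akr1c19.

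Of the other genes of the cluster, Akr1c1, Akr1c2 and Akr1c12 had probe sets of their own. Their group means lay between 2.544 and 3.311, above 1.95% to 8.33% of genes, near the low end of the array's range. With TNF they differed by 0.04, -0.30 and -0.28 in collagen (adjusted p = 0.863, 0.17 and 0.112) and by -0.04, -0.07 and -0.02 in fibrin (adjusted p = 0.894, 0.85 and 0.957). Between the gels Akr1c1 differed by -0.22 ± 0.06 (adjusted p = 0.025), a call lost in 7 of 20 alternatives, for example without collagen control replicate 2 (adjusted p = 0.0579), collagen control replicate 3 (0.0568), collagen TNF replicate 2 (0.0645), fibrin control replicate 1 (0.0587) or fibrin TNF replicate 1 (0.055).

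Over the whole family list of other aldo-keto reductases, 15 of 22 genes were measured. In collagen 0 rose and 0 fell with TNF (median log2 difference -0.025, beside 0.003 for all genes), and in fibrin 2 rose and 0 fell (median 0.012 beside 0.012). Akr1b8, an aldose reductase family member, rose in fibrin by 0.68 (adjusted p = 0.0013), and Akr1b1, aldose reductase, by 0.29 (adjusted p = 0.0126), a call lost with the mean over all its probe sets (0.12), with the fibrin arrays alone (0.114) and without fibrin control replicate 2 (0.0611). Between the gels, where a gene is said to rise if it was higher in fibrin, 2 rose and 2 fell, with Akr1b8 higher in fibrin by 0.75 (adjusted p = 3.46e-06). A further list held the other sulfotransferases and the enzymes that make or recycle the sulfate donor. It also held Sts, a steroid sulfatase, and Sumf2, a sulfatase modifying factor. Of this list 15 of 24 were measured, and with TNF 0 rose and 0 fell in either gel (medians 0.023 in collagen and 0.063 in fibrin). Papss1, which makes PAPS, was lower in fibrin than in collagen by -0.15 (adjusted p = 0.0459, lost in 14 of 21 alternatives, with 0.107 without collagen control replicate 3).

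Steroid and carbonyl dehydrogenases outside the aldo-keto reductases were measured for 31 of 40 genes, and most showed no call. With TNF 1 rose and 1 fell in collagen (median -0.032) and 2 rose and 1 fell in fibrin (median -0.032), and between the gels 2 rose and 5 fell. The list also holds Star, a cholesterol transport protein and no dehydrogenase, which is 1 of the 2 that rose in fibrin. Star rose by 0.76 (adjusted p = 0.0207), a call lost in 4 of 21 alternatives. Hsd11b1, which regenerates active glucocorticoid, rose with TNF by 0.78 in collagen (adjusted p = 1.67e-05) and by 0.41 in fibrin (adjusted p = 0.00484). Conjugating enzymes other than sulfotransferases were listed together with epoxide hydrolases (27 of 39 measured). Of these, 1 rose and 4 fell in collagen (median -0.121), and 4 rose and 0 fell in fibrin (median 0.039). The 4 that fell were the epoxide hydrolase genes Ephx1 and Ephx2 and the glutathione transferase genes Gstm2 and Gstt1. Ephx1, Gstm2 and Gstt1 lost the call in 6, 7 and 10 of 22 alternatives. Ephx2, the soluble epoxide hydrolase, fell in collagen by 0.54 (adjusted p = 0.00912), and the glutathione transferase genes Gstm1, Gstm4, Gstp1 and Gsta1 rose in fibrin by 0.62, 0.72, 0.43 and 0.58 (adjusted p from 0.000925 to 0.00746). Between the gels 5 of this list rose and 4 fell.

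Oxidising enzymes of drug metabolism (45 of 51 measured) moved in both directions. With TNF 3 rose and 4 fell in collagen (median -0.052) and 2 rose and 2 fell in fibrin (median -0.029), and between the gels 7 rose and 4 fell. Cyp7b1, an oxysterol hydroxylase, rose by 2.25 in collagen (adjusted p = 2.44e-07), Aox1, aldehyde oxidase, fell by 1.17 (adjusted p = 0.00421), and Aldh3a1, an aldehyde dehydrogenase, fell by 1.23 in fibrin (adjusted p = 0.000404). Of 24 measured targets of NRF2, the transcription factor of the antioxidant response, 4 rose with TNF in collagen (median 0.078), 9 in fibrin (median 0.297) and 10 between the gels (median 0.134), and 0 passed the test as lower. The lowest value in collagen was that of Gclm, a subunit of the enzyme of glutathione synthesis, at -0.306 (adjusted p = 0.0538). Slc7a11, the cystine transporter, rose with TNF by 0.68 in collagen (adjusted p = 0.000483) and by 1.10 in fibrin (adjusted p = 7.55e-05). The other 3 calls in collagen, Ugdh, Nqo1 and Txnrd1, were lost in 3, 5 and 8 of 22 alternatives, in each case without collagen control replicate 3 (adjusted p = 0.0517, 0.115 and 0.132), without collagen TNF replicate 3 (0.0532, 0.0697 and 0.0938) and without collagen TNF replicate 1 (0.0501, 0.055 and 0.0817). Nqo1 also lost its call without collagen control replicate 1 (0.068) or collagen TNF replicate 2 (0.113), and Txnrd1 without collagen control replicate 2 (0.119) or collagen TNF replicate 2 (0.12).

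Genes of prostaglandin synthesis, breakdown and receptors, a pathway whose products aldo-keto reductases can reduce, were measured for 24 of 25. In collagen 6 rose and 2 fell (median 0.074), in fibrin 3 rose and 2 fell (median 0.028), and between the gels 7 rose and 4 fell. Ptges, the inducible prostaglandin E synthase, rose in collagen by 2.04 (adjusted p = 1.02e-06), and Hpgds, a prostaglandin D synthase, fell by 1.37 (adjusted p = 0.000347). Of steroid receptors and glucocorticoid-induced genes 19 of 20 were measured, with 4 higher and 1 lower in collagen (median 0.036), 0 higher and 1 lower in fibrin (median -0.123) and 6 higher and 4 lower between the gels. The metallothionein genes Mt1 and Mt2A rose in collagen by 0.81 (adjusted p = 1.67e-05) and 0.47 (adjusted p = 0.000545), and Dusp1, a phosphatase of MAP kinases, by 0.44 (adjusted p = 0.00601). Pdk4, a kinase that inhibits pyruvate dehydrogenase, fell with TNF by 1.38 in collagen (adjusted p = 0.000402) and by 1.22 in fibrin (adjusted p = 0.00231).

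Markers of cell types moved beside the 5 genes. Of 13 measured fibroblast markers 6 fell and 2 rose with TNF in collagen, 5 fell and 0 rose in fibrin, and 6 fell and 2 rose between the gels. The mean of that list per array was 10.1 to 10.23 in collagen control, 9.806 to 9.922 in collagen TNF, 9.784 to 9.892 in fibrin control and 9.497 to 9.623 in fibrin TNF, highest in untreated collagen and lowest in fibrin TNF, with the middle groups overlapping. The list was not uniform: with TNF in collagen Mfap5, a microfibril protein, fell by 1.29 (adjusted p = 1.02e-06), while Fbln1, a matrix glycoprotein, rose by 1.03 (adjusted p = 0.00175) and Pdgfra, a growth factor receptor, by 0.68 (adjusted p = 0.000843). Of 14 macrophage markers 1 rose and 0 fell with TNF in collagen, 1 rose and 1 fell in fibrin, and 8 fell and 1 rose between the gels, with list means of 8.719 to 8.961 in collagen control, 8.549 to 8.917 in collagen TNF, 8.028 to 8.307 in fibrin control and 7.818 to 8.07 in fibrin TNF. Cd163, a scavenger receptor of macrophages, was lower in fibrin by -2.44 (adjusted p = 9.34e-07), the lowest of the list (median -0.727, highest 0.509). With TNF, Itgam differed by 0.51 in collagen (adjusted p = 0.00942). In fibrin Cd68 differed by 0.39 (adjusted p = 0.0276) and C1qc by -0.61 (adjusted p = 0.0248), calls lost in 8 and 5 of 22 alternatives. All 12 measured smooth muscle markers had group means above the array medians, and 4 of them fell with TNF in collagen, 0 in fibrin and 3 between the gels. Their list mean was 8.462 in collagen control, 8.186 in collagen TNF, 8.217 in fibrin control and 8.12 in fibrin TNF. Of 11 endothelial markers 1 fell in each TNF comparison and 2 between the gels, and of 11 adipocyte markers 1, 1 and 3 fell. The endothelial list mean was 8.538, 8.515, 8.43 and 8.391 in the same order of groups. The macrophage, smooth muscle and endothelial list means, like the fibroblast one, were thus highest in collagen control and lowest in fibrin TNF. In the endothelial list the arrays of these groups overlapped. Of 8 Schwann cell markers 0 moved with TNF and 1 fell between the gels. The scale has no true zero, and the lowest group mean of any marker, 2.213, was of a Schwann cell marker. The part of these marker shifts in the levels of the 5 genes was not tested.

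The genes of most similar pattern over the 12 arrays were named for each of the 5 by the highest Pearson correlation, and since the pattern chose them their differences are given without a test. For Akr1c14 they were Gas6 (0.990), Cxcl12 (0.986) and Hsd17b4 (0.976). Cxcl12, a chemokine, differed with TNF by -0.71 in collagen and -1.30 in fibrin, and like Akr1c14 had the larger difference in fibrin. For Sult1a1 they were Capn5 (0.993), Selenop (0.989) and Vipr2 (0.986), and Selenop, a selenium transport protein, differed by -1.09 and -0.87. Akr1c15 was nearest to Aspa (0.981), Nox4 (0.979) and Xpa (0.977), and Nox4, an NADPH oxidase, differed by -1.31 in collagen and -0.59 in fibrin. Akr1c19 was nearest to Ccdc80 (0.980), Blk (0.975) and Khdrbs3 (0.970), and Ccdc80 differed by -1.12 and -0.31. Akr1c3 was nearest to Ephx2 (0.963), Kdsr (0.955) and Clic5 (0.945), and Clic5 differed by -0.82 and 0.01. Between 0.287% of genes (for Akr1c3) and 1.95% (for Sult1a1) reached a correlation of at least 0.9, so many genes share these patterns.

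**Figure D4:**
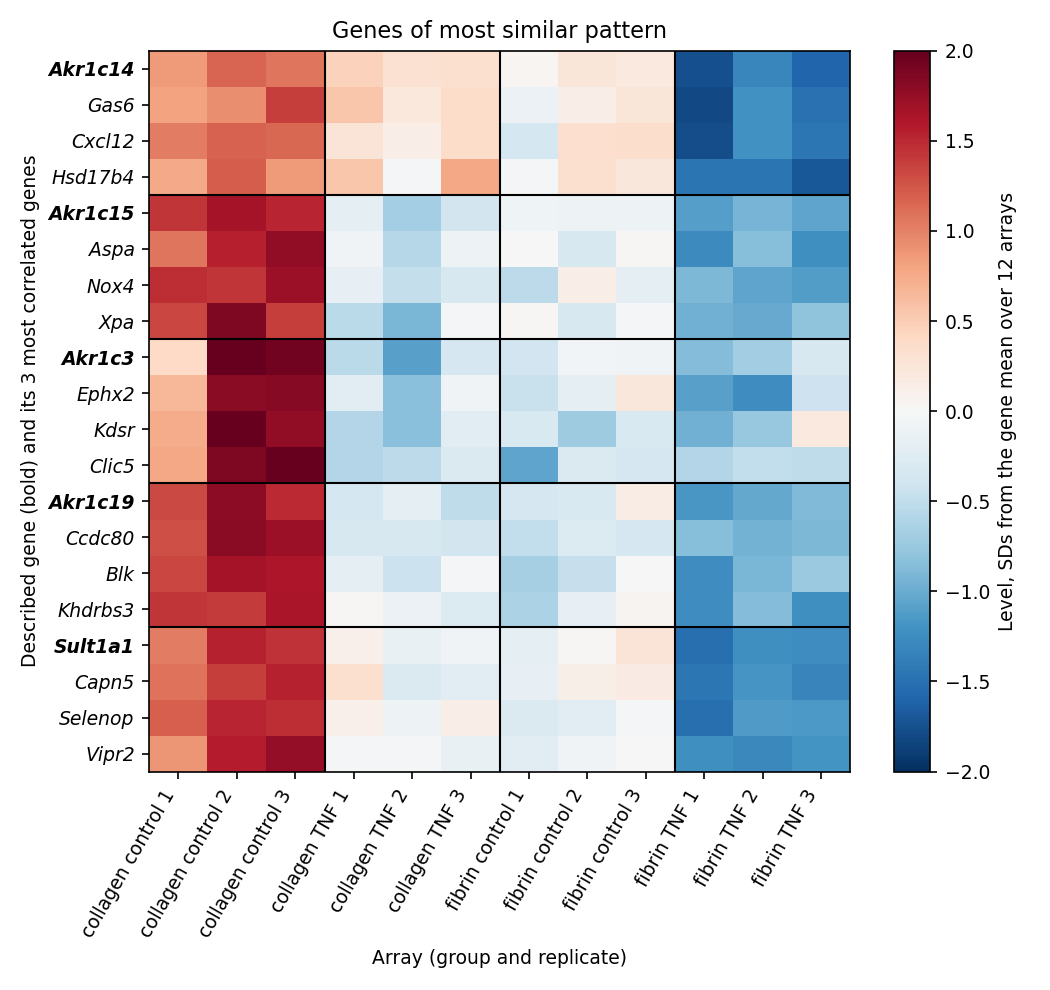
Levels of the 5 genes (bold) and of the 3 genes most correlated with each, in SDs from the gene's mean over the 12 arrays (colour), by array (horizontal axis, 3 replicates for each of the 4 groups). The rows of Akr1c14 and Sult1a1 are lowest in the fibrin TNF arrays, and the row of Akr1c3 is high in collagen control replicates 2 and 3.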

How the data were processed

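RNA of 12 samples, each combining several ring cultures, was measured on an Affymetrix whole-transcript array. The deposited values are on a log2 scale, as read from their range of 1.44 to 14.07, while the steps by which the authors normalized and summarised them were not stated in the labels used here. For tools, limma alone is named in the submitters' processing notes, with no version number. No scan date or other batch was used here. The table holds 27342 probe sets with 0 missing values: 15097 name 1 gene, 323 several and 11922 none, which leaves 14324 genes, with the probe set of highest mean standing for a gene. Promoter sequences are RefSeq's (GRCr8).

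The linear model of limma 3.58.1 (R 4.3.3) had a mean for each of the 4 groups and took in all 12 arrays. Its moderated two-sided tests were adjusted over all genes by Benjamini-Hochberg, with a threshold of 0.05. The number of arrays limits precision: the median SE was 0.0938 for a TNF difference and 0.0663 for the gel average. The fit was tested on simulated data. The 5 genes and the gene lists were chosen with earlier results of these data known. Named are the 5 genes, the 3 most correlated genes of each, and up to 6 called genes of smallest adjusted p with up to 3 others per list and comparison. Alternatives were other normalization, centring, filter, prior, array weights, probe set choice, replicate blocks and leaving out each array. Same-numbered arrays deviated together within a gel (correlations 0.133, 0.139 and 0.144 in collagen and 0.249, 0.144 and 0.159 in fibrin), which was taken as pairing there. Across the gels the same-numbered correlations were positive too, at 0.233, 0.0812 and 0.129 for untreated arrays and 0.053, 0.0311 and 0.143 for TNF arrays. Pairing is thus not shown to be confined to a gel. The printed fit has no replicate term, and the block is an alternative.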

Additional observations from a re-analysis of the deposited data

Results flagged for a closer look

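For 16 of the 269 genes measured on the lists (5.95%, beside 1.24% of all 14324 genes) the TNF difference itself differed between the gels, by the interaction of the limma fit (fibrin minus collagen, log2, Benjamini-Hochberg over all genes). The lists were chosen with earlier results known, so the shares are a description. The call held in all 21 alternatives for 7 of them: Cyp7b1 (-1.692), Aldh3a1 (-1.639), Ptges (-1.351), Cyp1b1 (-1.067), Mt1 (-0.598), Gstm1 (0.673) and Gstp1 (0.542). The other 9 lost it in 7 to 13 alternatives. These were Pla2g2a (-2.195), Fbln1 (-1.201), Pdgfra (-0.646), Ptgfr (-0.555), Tkt (0.489), Mfap5 (0.569), Gclm (0.625), Aldh1a3 (0.801) and Cyp2j4 (0.848). Another 3 genes also passed, Ccdc80 (0.812), Clic5 (0.832) and Nox4 (0.719), but they were named for their pattern over the same arrays, so that their calls are not independent of that choice. Groups of 3 arrays were too small to look for single outlying arrays.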

How the results depend on the processing

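Of 422 values of the 5 genes under the alternatives, 405 kept their direction and their side of the threshold or moved by less than the spread, 2 moved, 15 lost a call and 0 reversed. A TNF difference, or its difference between gels, counted as reversed only where its main value exceeded the spread of the gene. The difference between gels of Sult1a1, 0.03 with all arrays, was below that limit and changed sign without 1 array (-0.118 to 0.238). The gel difference of Akr1c14, Akr1c15, Akr1c19 and Sult1a1 kept its call in every alternative run, with adjusted p from 1.62e-08 to 4.9e-05. That of Akr1c3 lost the call with quantile normalization (-0.561, adjusted p = 0.0587), median centring (-0.541, 0.0549), array weights (-0.585, 0.0517) and all probe sets tested (-0.592, 0.0635), and ran from -0.787 to -0.488 without 1 array (adjusted p up to 0.105). With the random replicate block within each gel its value was -0.592 (adjusted p = 0.0889), and the block changed no other call of the 5 genes. Leaving out 1 array moved the TNF difference of Akr1c3 in collagen between -1.958 and -1.36 and its difference between gels between 1.015 and 1.613. The number of genes called was 912 for TNF in collagen (568 to 940 without 1 array), 448 in fibrin (237 to 539, and 230 in a fit of the fibrin arrays alone) and 177 for the difference between gels (103 to 246). That last count was 294 without the dimmest 33.3% of genes, 276 with the replicate block over all arrays and 339 under a robust, trended variance prior. The counts moved by over 1.5 times without collagen control replicates 2 or 3 or collagen TNF replicates 1 or 2 (TNF in collagen), without fibrin control replicates 2 or 3 or fibrin TNF replicates 1 or 3 (TNF in fibrin), and without collagen TNF replicates 1 or 2 or fibrin control replicate 2 (the difference). Over the 8 enzyme and regulator lists the calls in collagen, 31 with all arrays, ran from 20 to 33 without 1 array (20 without collagen TNF replicate 3). Those for the difference, 13 with all arrays, ran from 7 to 15 without 1 array. Under the other alternatives the calls ran from 25 to 42 in collagen and from 9 to 19 for the difference. Akr1c3 and Akr1c19 have no value in the alternative without those dim genes. The causes were not tested.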
